A study of Daucus carota with 6 samples.

Results

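Among the miRNAs listed in shredded carrot (Daucus carota), 34 carried an animal-type name and were found both before and after storage. An animal-type name has a species code and the form miR-number, as in cel-miR-77-5p, whereas plant names carry no hyphen before the number. Members were chosen by their measured values. Each was above 0 TPM in 1 or both libraries without storage and in 1 or more of the stored libraries, out of 298 listed names of this form and 469 names in all. The 5 names of this form that the rule leaves out, 4 of them above 0 in both unstored libraries, are not counted among the 34. Of the other animal-type names, 137 were found only before storage and 122 only after it.

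The carrots were commercial-grade, washed, chlorinated, peeled and shredded, so that every library comes from wounded tissue, and no unwounded carrot is among the samples. Shreds were taken without storage (T0), after 24 h (T24) or after 48 h (T48) at 20 ± 2 °C, with 2 small RNA libraries for each time. The labels give the tissue only as vegetable tissue and name no cultivar. Nothing states that the 2 libraries of a time come from separate carrots or extractions, so p-values below measure the spread between libraries, which may be technical. The library names of a time share their first part and differ only in an ending code, whose meaning is not stated. T0 and T24 have the same pair of codes and T48 has another pair. A change at T48 thus cannot be told apart from a change of code. A TPM here is the number of reads per 1000000 miRNA reads of the library, and no length enters it.

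Plant miRNAs are short RNAs of one strand that are cut from a hairpin precursor by a Dicer-like enzyme and loaded into an Argonaute protein. They mostly pair along nearly their whole length with a target mRNA, which is then cleaved, while animal miRNAs mostly pair through the seed, a short stretch near the 5′ end. Many plant families are shared among flowering plants and act on transcription factors, also during wounding and storage. Plant and animal miRNA genes are thought to have arisen separately, so that an animal name on a carrot RNA is a label for a resemblance. The software named by the study can list a known miRNA with the same seed beside a predicted hairpin, and whether the names arose that way is not given in the sources used here. The authors' list marks each of these names as new, and this mark is left out below. Sequences of the 34 were not used here, and no function of the animal namesake is ascribed to the carrot RNA.

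The 34 names came from 23 species codes. Vertebrate codes gave 16 of them, roundworm codes 8, fruit fly codes 4, flatworm codes 3, and the sea squirt and the acorn worm together 3. Human (hsa) with 4 names and chicken (gga) and Caenorhabditis elegans (cel) with 3 each were the most frequent codes. Each of the 5 groups had exactly 1 name above 0 in all 6 libraries, and names in only 2 libraries were 5 of 16, 4 of 8, 2 of 4, 2 of 3 and 0 of 3 in the same order. The study's precursor list places all 34, and 1 of them, hsa-miR-647, overlaps on the same strand with another listed name, mmu-miR-3064-5p.

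Read totals were recovered from the table as the smallest total that made every value a whole number of reads, within 0.001 reads. They ran from 64886 reads in the first T48 library to 199911 reads in the second. A single read thus stood for 5.00 to 15.4 TPM, and the lowest count listed was 2 to 4 reads in a library, so that a name at 0 is not shown to be absent. The first T48 library stood apart from the other stored libraries. It had the fewest reads and listed oan-miR-1421ag-5p at 0, whereas this abundant name, which is no member, took 54.7% and 50.6% of the T24 reads and 46.8% of the second T48 library. Since every TPM is a share of the same total, all other names in those 3 libraries are lowered by it. Over the 23 names above 0 in all 4 libraries of T0 and T24, the median log2 change to T24 was -0.54 as deposited, 0.54 with that name left out of the totals and -0.02 after median-of-ratios scaling. Where the relation of both libraries of a time to both of another differed on these other scales, this is given with the name.

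All 34 names together were a small part of the reads at every time. They made up 0.944% of the reads in the first T0 library (Wilson 95% confidence interval 0.897% to 0.993%) and 0.938% in the second (0.894% to 0.985%). The T24 libraries had 0.965% (0.912% to 1.02%) and 0.611% (0.571% to 0.654%), and the T48 libraries 2.07% (1.97% to 2.19%) and 0.739% (0.703% to 0.778%). PCR copies of a molecule are counted as separate reads, so these intervals hold counting error alone. The T0 libraries lay within each other's interval, and the stored ones did not. The T48 mean exceeded the T24 mean by 0.619 percentage points, but the values overlapped (exact permutation test, two-sided, p = 0.667, where 2 libraries against 2 can reach no lower p than 1 in 3). Without the first T48 library, the T48 value was 0.739%. With oan-miR-1421ag-5p left out of the totals, the stored libraries had 2.13%, 1.24%, 2.07% and 1.39%, all above the T0 libraries. Presence before and after storage chose the names, so these shares are given as a description.

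**Figure D1:**
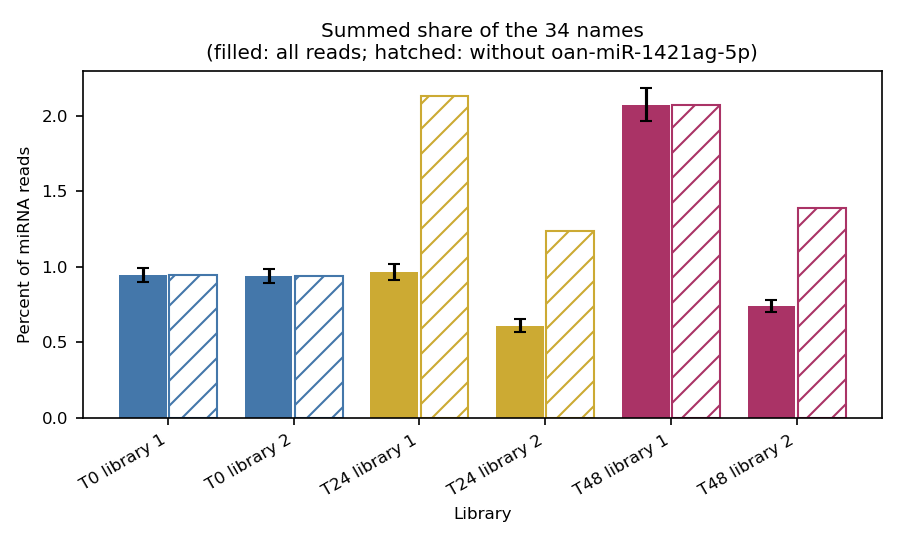
Share of the miRNA reads taken by the 34 names in each of the 6 libraries, in percent. Filled bars use all reads, with Wilson 95% intervals, and hatched bars leave oan-miR-1421ag-5p out of the total. The first T48 library reaches 2.07% on both scales, whereas the 3 libraries holding oan-miR-1421ag-5p rise when it is left out.

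A library held 26 and 21 of the 34 at T0, 18 and 20 at T24, and 15 at T48 in each. The rule shapes this fall, since it asks for at least 1 of 2 unstored libraries but at least 1 of 4 stored ones. Listed names of any form above 0 also fell, numbering 193, 135, 105, 122, 89 and 93 in the same library order. Members made up 13.5%, 15.6%, 17.1%, 16.4%, 16.9% and 16.1% of them. Every member had to be above 0 in a stored library, and other names did not. These shares therefore cannot show whether members were lost more or less than other names. Of the 34, 11 were found at all 3 times, 13 at T0 and T24 alone and 10 at T0 and T48 alone. Both T0 libraries held 13 of them and 1 T0 library held the other 21. Both T24 libraries held 14, 1 held 10 and neither held 10. At T48, both libraries held 9, 1 held 12 and neither held 13. Over the 6 libraries, 5 names were above 0 in all, 3 in 5, 5 in 4, 8 in 3 and 13 in only 2, the fewest the rule allows. For comparison, 18 of the 137 animal-type names found only before storage were in both T0 libraries, a count that was not tested since presence chose both lists.

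**Figure D2:**
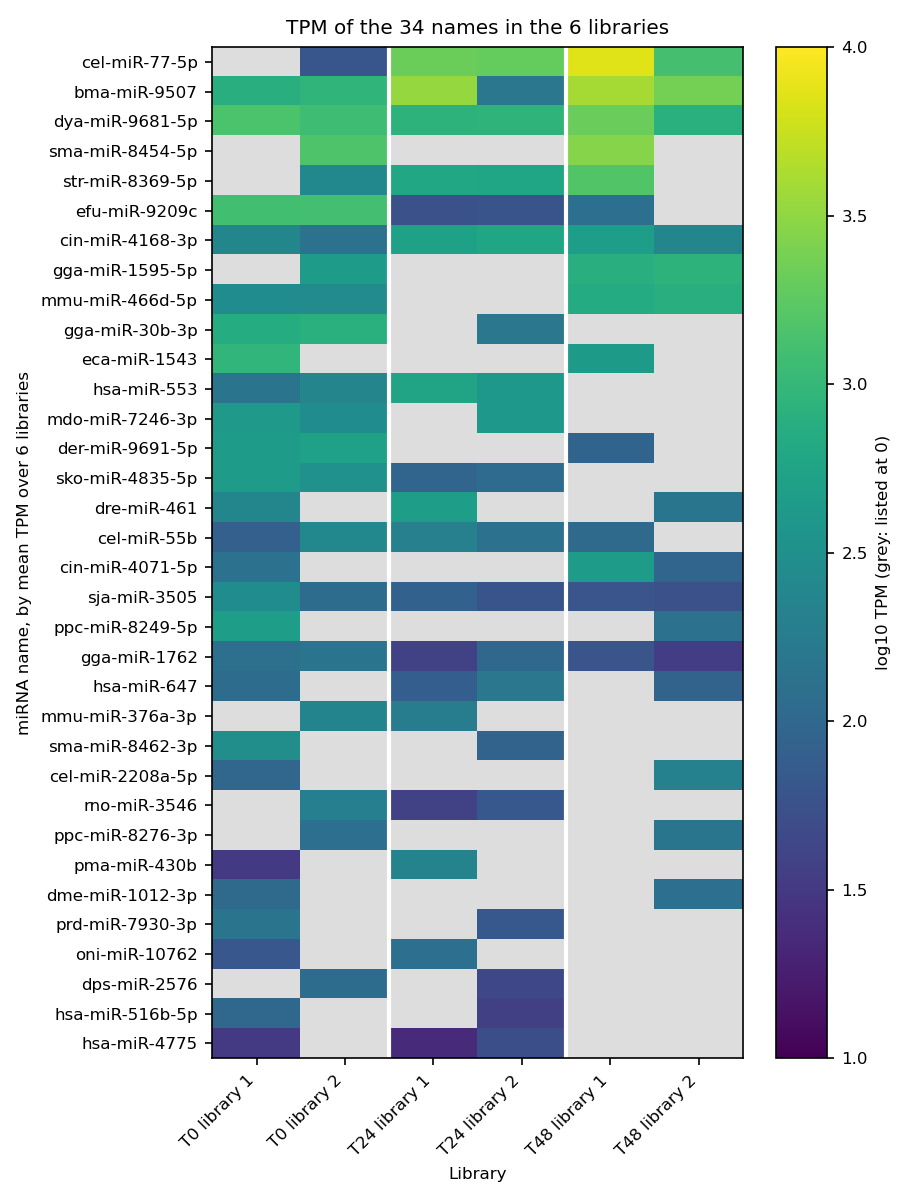
TPM of each of the 34 names (rows, ordered by mean TPM) in the 6 libraries (columns), as log10, with names listed at 0 in grey. The 5 rows without grey are bma-miR-9507, dya-miR-9681-5p, cin-miR-4168-3p, sja-miR-3505 and gga-miR-1762, and most of the lower rows are filled in 2 or 3 libraries.

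The names present in all 6 libraries are described first. The most abundant of these was bma-miR-9507, named after the parasitic roundworm Brugia malayi, at 782 and 928 TPM unstored, 3360.1 and 156 TPM after 24 h, and 3930.0 and 2381 TPM after 48 h. Its T48 libraries lay above both T0 libraries, and its T24 libraries lay on either side of them. The 427 and 21 reads at T24 differed 21.5-fold as TPM, the widest gap within a time point among the 14 names present in both T24 libraries, for which the median gap was 1.42-fold. Both T0 libraries differed 1.22-fold in the median over 13 names and both T48 libraries 1.76-fold over 9.

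For dya-miR-9681-5p, named after a fruit fly, TPM were 1428 and 1169 before storage, 873 and 901 at 24 h, and 2065 and 805 at 48 h. As deposited, both T24 values were under those of T0, and the T48 pair lay on either side of all others. The T24 direction turned with the scale, for without oan-miR-1421ag-5p in the totals the T24 libraries had 1929 and 1824 TPM and the T48 libraries 2065 and 1515 TPM, all above T0, and with median-of-ratios scaling the T0 and T24 libraries overlapped. No direction at T24 is therefore given for dya-miR-9681-5p.

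The sea squirt name cin-miR-4168-3p stood at 239 and 132 TPM unstored and at 519 and 581 TPM after 24 h, 2.97 times the T0 mean. After 48 h, it stood at 478 and 240.1 TPM, 1.94 times the T0 mean. All 4 stored libraries lay above both T0 libraries, the second T48 library by only 1 TPM, and they did so as well without oan-miR-1421ag-5p in the totals, where the T24 and T48 means were 6.26 and 2.51 times the T0 mean.

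Values of sja-miR-3505, a blood fluke name, were 291 and 115 TPM at the start, 86.6 and 59.6 TPM at 24 h, and 61.6 and 55.0 TPM at 48 h. Those of gga-miR-1762, a chicken name, were 129 and 143 TPM, 39.3 and 104 TPM, and 61.6 and 35.02 TPM in the same order. In both cases all stored libraries lay below both T0 libraries as deposited. These lows rest on 4 to 14 reads a library, and without oan-miR-1421ag-5p in the totals or with median-of-ratios scaling the T0 and T24 libraries of both names overlapped, while T48 stayed lower. Both T48 libraries then also lay below both T24 libraries, for sja-miR-3505 without oan-miR-1421ag-5p in the totals and for gga-miR-1762 on both of these scales.

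Of the 3 names present in 5 libraries, cel-miR-77-5p had the highest mean of the 34. It was listed at 0 and 63.0 TPM before storage, at 2093 and 1936 TPM after 24 h and at 7089 and 1316 TPM after 48 h. In reads, this was 0 and 11, then 266 and 260, and then 460 and 263. Every stored library lay above both T0 libraries, also on the other scales and without the first T48 library. The spread at T48 was 5.39-fold, the widest of the 9 names in both T48 libraries.

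The opposite course was seen for efu-miR-9209c, named after a bat, with 1221 and 1266 TPM before storage, 55.1 and 59.6 TPM after 24 h, and 123 and 0 TPM after 48 h. The T0 mean was 21.7 times the T24 mean, or 10.3 times without oan-miR-1421ag-5p in the totals. All stored libraries lay below both T0 libraries on each scale tried. For cel-miR-55b, the values were 84.0 and 252 TPM, 205 and 134 TPM, and 108 and 0 TPM at the 3 times, and T0 and T24 overlapped as deposited. Without oan-miR-1421ag-5p in the totals, cel-miR-55b had 452 and 271 TPM at T24, both above T0, and with median-of-ratios scaling T0 and T24 overlapped and both T48 libraries lay below T0. The let-7 and lin-4 miRNAs made C. elegans, which lends its code to both cel names here, the animal in which miRNAs were first described.

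**Figure D3:**
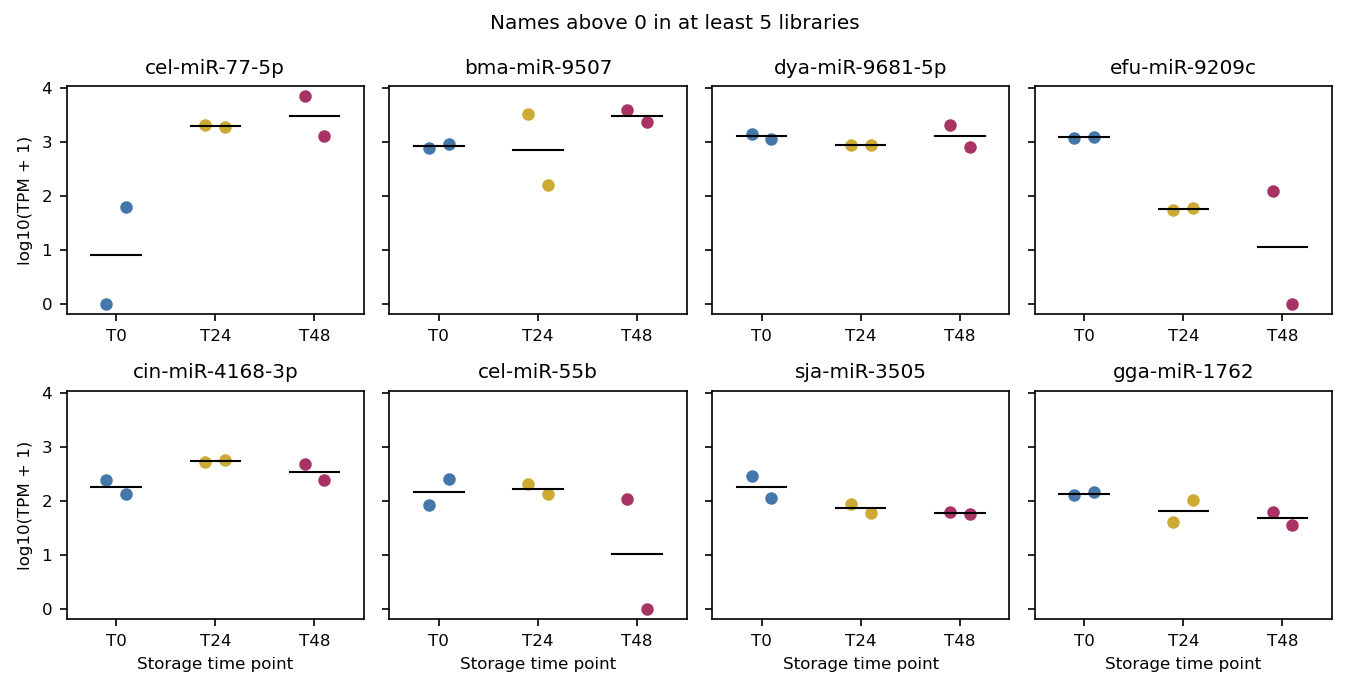
TPM of the 8 names above 0 in at least 5 libraries, as log10(TPM + 1), at T0, T24 and T48. Points are libraries and black lines are means on the log scale of 2 libraries. The T0 points of cel-miR-77-5p (0 and 63.0 TPM) lie below the stored ones, those of efu-miR-9209c (1221 and 1266 TPM) lie above, and bma-miR-9507 is split at T24.

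In 4 libraries, mmu-miR-466d-5p had 284 and 281 TPM unstored, 0 at T24 in both, and 694 and 760.3 TPM at T48. In the mouse, the miR-466 family is a large one encoded in an intron of Sfmbt2. The values of hsa-miR-553 were nearly a mirror image, 142 and 229 TPM unstored, 559 and 402 TPM at T24, and 0 in both T48 libraries. Neither name had a library that overlapped with another time point. The acorn worm name sko-miR-4835-5p went down in steps, from 446 and 332 TPM to 94.4 and 112 TPM and then 0 in both libraries.

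Also in 4 libraries, str-miR-8369-5p began at 0 and 252 TPM, reached 614 and 603 TPM after 24 h, and had 1526 and 0 TPM after 48 h. Its 99 reads in the first T48 library would have given 305 reads in the deeper second one, where none was listed. The human name hsa-miR-647 had 116 and 0 TPM unstored, 78.7 and 156 TPM after 24 h, and 0 and 90.0 TPM after 48 h, so that T0 and T24 overlapped. Without oan-miR-1421ag-5p in the totals, its T24 libraries had 174 and 317 TPM, above both T0 and T48 libraries, and T24 was above T0 with median-of-ratios scaling as well. The name that overlaps with its precursor, mmu-miR-3064-5p, had 108 TPM or 7 reads in the first T48 library and 0 in the other 5. In the second T0 library both names were at 0. Whether reads were divided between the overlapping names was not tested.

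Of the 8 names in 3 libraries, 3 had both T0 libraries. The chicken name gga-miR-30b-3p, from a family widely expressed in vertebrates, had 724 and 802 TPM unstored and 156 TPM in the second T24 library only. A fruit fly name, der-miR-9691-5p, had 452 and 521 TPM at T0 and 92.5 TPM in the first T48 library only, which is 6 reads. Both were lower in every stored library on each scale tried. The opossum name mdo-miR-7246-3p had 414 and 286 TPM at T0, and 395 TPM in the second T24 library, inside the T0 range as deposited but above it without oan-miR-1421ag-5p in the totals (799 TPM), and 0 in the other 3.

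The other 5 names in 3 libraries had 1 T0 library each. At T0 and T48 stood gga-miR-1595-5p, with 458 TPM in the second T0 library and 771 and 860.4 TPM at T48, and cin-miR-4071-5p, with 136 TPM in the first T0 library and 447 and 95.04 TPM at T48. At T0 and T24 stood rno-miR-3546, with 195 TPM in the second T0 library and 39.3 and 67.0 TPM at T24, and hsa-miR-4775, with 32.3 TPM in the first T0 library and 23.6 and 52.1 TPM at T24. On the deposited scale cin-miR-4071-5p, rno-miR-3546 and hsa-miR-4775 overlapped with T0 in their stored libraries. Without oan-miR-1421ag-5p in the totals, both T48 libraries of cin-miR-4071-5p (447 and 179 TPM) and both T24 libraries of hsa-miR-4775 (52.1 and 106 TPM) lay above T0, the latter also with median-of-ratios scaling. The zebrafish name dre-miR-461 had 239, 472 and 145 TPM in 1 library of each time, and the times overlapped.

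The 13 names in 2 libraries had 1 before and 1 after storage, with 5 to 261 reads. In 7 of them the stored library was of T24. These were sma-miR-8462-3p (304 TPM at T0, then 89.3 TPM), mmu-miR-376a-3p (223 and 189 TPM), pma-miR-430b (32.3 and 220.3 TPM), oni-miR-10762 (64.6 and 126 TPM), prd-miR-7930-3p (142 and 67.0 TPM), dps-miR-2576 (115 and 44.7 TPM) and hsa-miR-516b-5p (103 and 37.2 TPM). Of the vertebrate namesakes among these, the miR-430 family clears maternal mRNAs in the zebrafish embryo. In mammals, miR-376a comes from an imprinted cluster and miR-516b from a primate cluster active in placenta.

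In 6 of the 13, the stored library was of T48. These were sma-miR-8454-5p (1495 TPM at T0, then 2867 TPM), eca-miR-1543 (943 and 432 TPM), ppc-miR-8249-5p (485 and 130.1 TPM), ppc-miR-8276-3p (126 and 145 TPM), dme-miR-1012-3p (109.8 and 125 TPM) and cel-miR-2208a-5p (96.9 and 210.1 TPM). The highest single values of the 13 belong to the flatworm name sma-miR-8454-5p, which was nevertheless at 0 in the other library of both times.

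Zeros beside high values occurred among the 34 at each time. In 43 cases, a name was above 0 in 1 library of a time and at 0 in the other, and in 32 of these the share of the first would have given at least 10 reads in the second. They were 18 of 21 cases at T0, 7 of 10 at T24 and 7 of 12 at T48. The largest were sma-miR-8454-5p, with 573 reads expected in the second T48 library and 231 in the first T0 library, and str-miR-8369-5p, with 305 in the second T48 library. For eca-miR-1543, 165 reads were expected in the second T0 library and 86.3 in the second T48 library. The cause of these zeros was not tested, and such cases were not counted over all names. Presence in a single T0 library was not particular to the 34. Both T0 libraries held 13 of them, and 18 of the 137 animal-type names found only before storage.

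At the edge of the rule, pma-miR-430b and hsa-miR-4775 had the lowest T0 value of the 34, taken in the higher T0 library, 32.3 TPM or 5 reads, and hsa-miR-516b-5p the lowest stored value, taken in the highest stored library, 37.2 TPM or 5 reads. Of the names just outside, those found only before storage had a median of 13 reads in their higher T0 library, against 39.5 reads for the 34. Those found only after storage had a median of 10.5 reads in their highest stored library, against 26 for the 34. These values chose the names, so they are given as a description.

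The change from T24 to T48 asks which names differ between the first and second day of storage. The rule does not order these 2 times, but each of the 34 had to be found at 1 of them, and a name at 0 in the other could be called only through the time that let it in. The counts and tests below therefore describe these names, and nothing is read from their share against the share over all names. With limma on log2(TPM + 1), fitted on the 4 libraries over the 260 names above 0 in at least 1 of them, which all 34 are, 7 of the 34 were called, which takes an unadjusted p no higher than 0.05 and a 2-fold or larger change, beside 10.8% of all names tested. Among names above 0 in at least 2 of the 4 libraries, 28 of 87 were called, and 7 of the 18 members that meet this. Higher at T48 were 3 of the 34 (2.69% of all names tested) and lower were 4 (8.08%). After Benjamini-Hochberg adjustment of limma's p-values none of the 7 stayed at or under 0.05, and their lowest adjusted p, 0.131, was also the lowest of all 260.

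Listed at 0 in both T24 libraries and above 0 in both T48 libraries were gga-miR-1595-5p (limma, adjusted p = 0.131), mmu-miR-466d-5p (adjusted p = 0.131) and cin-miR-4071-5p (adjusted p = 0.171). All 3 had been seen at T0 in at least 1 library. The reverse held for hsa-miR-553 (limma, adjusted p = 0.139), sko-miR-4835-5p (adjusted p = 0.171), rno-miR-3546 (adjusted p = 0.204) and hsa-miR-4775 (adjusted p = 0.255), which were above 0 at T24 and at 0 in both T48 libraries. Every one of the 7 calls thus separates listed from not listed, and a fold change cannot be given where a time is at 0. The call of rno-miR-3546 rests on 5 and 9 reads and that of hsa-miR-4775 on 3 and 7 reads at T24, and both were lost with a pseudocount of 10, in a fit on all 6 libraries, with limma's voom on the recovered reads and with a replicate block. That of sko-miR-4835-5p was lost with voom and with the block. The call of cin-miR-4071-5p was lost when either T24 library was left out.

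**Figure D4:**
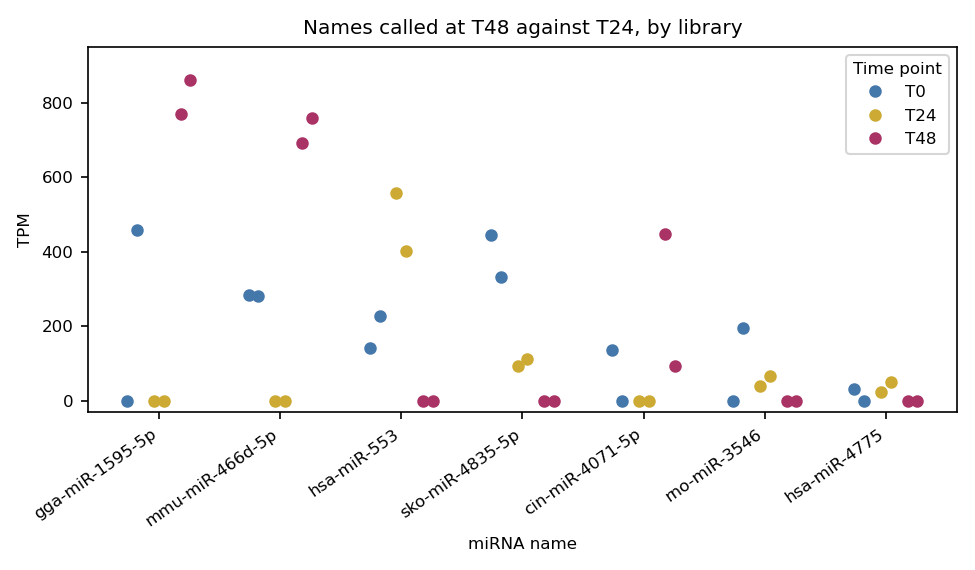
TPM by library of the 7 names called between T24 and T48, at T0 (blue), T24 (yellow) and T48 (red), with 2 points for each time. For cin-miR-4071-5p, gga-miR-1595-5p and mmu-miR-466d-5p both T24 points are at 0, and the other 4 names have both T48 points at 0, so that no T24 point overlaps with a T48 point.

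The 6 names present in all 4 stored libraries were not called. The log2 fold change from T24 to T48 was 2.07 for bma-miR-9507 (standard error 2.16, limma, adjusted p = 0.471), 0.60 for cel-miR-77-5p (standard error 1.63, adjusted p = 0.815) and 0.54 for dya-miR-9681-5p (standard error 1.44, adjusted p = 0.815). It was -0.70 for cin-miR-4168-3p (standard error 1.40, adjusted p = 0.734), -0.46 for gga-miR-1762 (standard error 1.48, adjusted p = 0.850) and -0.30 for sja-miR-3505 (standard error 1.37, adjusted p = 0.907). These standard errors draw on all names tested, many of them at 0 in some libraries. Without the second T24 library, where bma-miR-9507 was low, its change became -0.14, and without the first it became 4.28 and was called. When the 22 names above 0 in all 4 libraries were fitted alone, bma-miR-9507 was the 1 member called. Without the second T48 library, cel-miR-77-5p (1.82) and dya-miR-9681-5p (1.22) were called higher, and without the first both turned negative (-0.61 and -0.14, not called). Both also turned with oan-miR-1421ag-5p out of the totals (-0.023 and -0.084), so that neither has a settled direction between T24 and T48.

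Counted by libraries, both T48 values lay above both T24 values for 3 of the 34 (5.38% of all names tested) and below for 6 (11.5%). The first 3 and 4 of the 6 are the called names, and the other 2 are cel-miR-55b and cin-miR-4168-3p.

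For T0 against the stored times, presence chose the names, so the following counts describe them and nothing is read from them. Both comparisons also share the T0 libraries. At T24 against T0, 3 of the 34 were called, all lower, namely efu-miR-9209c, mmu-miR-466d-5p and der-miR-9691-5p, beside 13.2% of the 394 names tested. At T48 against T0, 5 were called, cel-miR-77-5p higher and hsa-miR-553, gga-miR-30b-3p, mdo-miR-7246-3p and sko-miR-4835-5p lower, beside 12.7% of 369. Both T24 libraries lay above both T0 libraries for 4 (8.38% of all names tested) and below for 8 (11.4%). Both T48 libraries lay above both T0 libraries for 5 (6.50%) and below for 8 (11.7%). With oan-miR-1421ag-5p out of the totals, the T24 counts turned to 8 above (9.92% of all names) and 5 below (9.41%), and the T48 counts were 7 (7.61%) and 8 (10.9%).

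Across both days, all 4 stored libraries lay below both T0 libraries for 6 names and above for 2, and 26 overlapped, beside 8.41% below and 2.16% above among the 464 names above 0 in any library. The 6 were efu-miR-9209c, gga-miR-30b-3p, der-miR-9691-5p, sko-miR-4835-5p, sja-miR-3505 and gga-miR-1762, and the 2 were cel-miR-77-5p and cin-miR-4168-3p. Without oan-miR-1421ag-5p in the totals, sja-miR-3505 and gga-miR-1762 left the first set, which held 4 names, and dya-miR-9681-5p joined the second, which held 3, beside 7.56% and 2.59% of all names. Presence chose the names here too.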

How the data were processed

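The authors prepared small RNA libraries with the SMARTer smRNA-Seq kit, trimmed reads with cutadapt, dropped short and low-quality reads, and matched the rest to miRBase with Bowtie2 and miRDeep2, allowing a mismatch and multi-mapping. Multi-mapping reads may be split between related names. The genome build is not given in the sources used here. The deposited values, called TPM by the authors, are RPM values that sum to 1000000 in each library, and 0 columns were unused. Reads were recovered from them (100% of values whole). Libraries were matched by the library name in the labels.

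Times were compared with limma 3.58.1 (R 4.3.3) on log2(TPM + 1), two-sided, over names above 0 in at least 1 of the 4 libraries, with p-values adjusted over all of these. The study used DESeq2, which was not run. The permutation test and Wilson intervals used scipy 1.17.1 (Python 3.11.15). The fit was tested on simulated counts, which did not include zeros beside high values as seen here. That test therefore says nothing about such zeros. Members, lists, tests and alternatives were chosen with earlier results of these data known. Every member is accounted for. Those above 0 in at least 4 libraries or called at T48 against T24 have each library's value, and the others their values above 0. Alternatives were the pseudocount, low-value filters, scaling, the fit, the criterion, single libraries left out, a replicate block and minimum reads. Median-of-ratios scaling of the library counts was chosen after seeing the data.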

Additional observations from a re-analysis of the deposited data

Results flagged for a closer look

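Of the 34 names, 2 moved in opposite directions from T0 at the 2 storage times in every library. The same pattern was not counted over all names, and presence chose the 34, so nothing is read from this count. At T24, hsa-miR-553 was above T0 with a mean of 480.4 TPM, and at T48 it was at 0. The reverse was seen for mmu-miR-466d-5p, which was at 0 at T24 and above T0 at T48 with a mean of 726.9 TPM. Both changes share the T0 libraries, so their difference is the T48 against T24 comparison given above, with 2 libraries at each time. The names were picked for this pattern, and each was let in after storage only by the time where it is high. That comparison is therefore no test of the pattern.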

How the results depend on the processing

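Between T24 and T48, 7 of the 34 were called, and 28 of all 260 names. Among names above 0 in all 4 libraries, the 1 call, of 6 members and 22 names, was bma-miR-9507, which is not among the 7. There were 4 calls with voom (26 of all names), 4 with the replicate block (13), 0 at an adjusted p of at most 0.05 (0) and 27 at an adjusted p of at most 0.5 (221). The 3 calls at T24 against T0 (52 of 394 names) became 6 with names above 0 in at least 2 of the 4 libraries (61 of 101), 5 with no filter (59 of 469), 7 with a variance trend (61), 8 with voom (65) and 22 at an adjusted p of at most 0.5 (368). In that comparison, 2 stayed at an adjusted p of at most 0.05 (28 of all names). The 5 calls at T48 against T0 (47 of 369 names) became 8 with a variance trend (56), 8 with voom (72), 3 with the block (22), 0 at an adjusted p of at most 0.05 (0) and 23 at an adjusted p of at most 0.5 (342). With 1 library left out, which leaves a lone library assumed to vary like the others, the ranges were 9 to 14, 5 to 13 and 7 to 13 calls, beside 61 to 89, 104 to 184 and 95 to 164 of all names. The block pairs libraries by a number that the sample titles give only to the second of each time. The ending codes of the library names go with this pairing for T0 and T24 but give none for T48. Deviations of same-numbered libraries over 17 names correlated at -0.09, -0.22 and -0.28, so no pairing is shown. The mean share of the 34 at T24 was 1.68% without oan-miR-1421ag-5p in the totals, and with 1 library left out the shares ran from 0.938% to 0.944% at T0, 0.611% to 0.965% at T24 and 0.739% to 2.07% at T48. The mean of 19 names per T24 library fell to 16.5 at the TPM of 3 reads in the shallowest library and 13.5 at 10 reads. The 15 at T48 became 14.5, 12 and, thinned to 64886 reads, 14.97. Names with both T24 libraries above T0 became 8 without oan-miR-1421ag-5p in the totals (9.92% of all names). The 8 below became 5 on that scale (9.41% of all names), with median-of-ratios scaling and with a 2-fold gap. The 5 at T48 above T0 became 3 with that gap. Shares over all names were not counted for median-of-ratios scaling or the gap, so nothing is read from those counts. Some names that were not called changed direction from T24 to T48. With oan-miR-1421ag-5p out of the totals, the log2 fold change was -0.023 for cel-miR-77-5p and -0.084 for dya-miR-9681-5p. Over the fits without 1 library, it ran from -0.61 to 1.82 for cel-miR-77-5p, from -0.14 to 1.22 for dya-miR-9681-5p, from -0.14 to 4.28 for bma-miR-9507 and from -1.15 to 0.24 for gga-miR-1762. Depth limits most of all the names with fewer than 10 reads, which are 19 of the 115 values above 0.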
